A study of Mus musculus with 3 samples.

Results

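Ccr6, a chemokine receptor, was followed in microglia of a mouse without MHC class II and in microglia of wild-type mice. It is 1 of the 14221 genes listed in the deposited single-cell tables. It was chosen by its level: the fold between these genotypes in earlier results of the same data selected it, so its own levels are given as a description, with no test. In the deficient library, cells with at least 1 Ccr6 molecule were then set against cells with none. The study asks how microglia depend on CD4 T cells. The 3 libraries came from adult mouse brains: 1 from an MHC class II-deficient mouse, labelled as nearly free of CD4 T cells, and 2 from WT mice, WT 1 and WT 2. All were digested with enzymes, enriched on Percoll and sorted for CD11b and CD45. The allele behind the deficiency, sex, exact age and strain are not given in the labels used here. The deficient group is 1 library, so no spread between deficient mice can be had.

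Ccr6 is a G protein-coupled receptor on the cell surface. Its chemokine ligand is Ccl20, and it is best known for guiding T helper cells of the interleukin-17-producing kind, B cells and dendritic cells to skin and gut. Microglia are the resident macrophages of the brain, and the chemokine receptor they are known for is Cx3cr1.

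On mm10, Ccr6 (ENSMUSG00000040899) lies on the plus strand of chromosome 17, from 8236043 to 8257141, in GENCODE's annotation. No other annotated gene overlaps it. The nearest genes are Fgfr1op, 39.2 kb to its left, and Mpc1, 25.8 kb to its right. RefSeq gives it 2 start sites in its GRCm38.p6 build. The window around the outer start, chr17:8235793-8236092 on the plus strand, is shown because it holds the annotated start of the gene. The 3′ counts do not tell which start was used.
Ccr6 outer start window: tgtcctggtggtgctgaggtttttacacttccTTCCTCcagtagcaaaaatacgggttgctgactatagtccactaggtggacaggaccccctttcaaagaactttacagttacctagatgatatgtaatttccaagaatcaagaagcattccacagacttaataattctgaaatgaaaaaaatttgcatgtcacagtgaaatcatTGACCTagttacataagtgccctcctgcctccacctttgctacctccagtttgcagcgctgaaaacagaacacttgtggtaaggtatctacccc
Capitals mark the motif matches found in it on either strand: TTCCTC, the reverse complement of the PU.1 motif GAGGAA, and TGACCT, the reverse complement of the ROR half-site AGGTCA. The AP-1 motif TGANTCA and the C/EBP motif TTGCNNAA had no match, and no 2 matches overlap. Of 32851 mouse windows of this length, 28.3% held the PU.1 letters, 16.3% the ROR letters, 7.81% the AP-1 letters and 10.8% the C/EBP letters. The window around the inner start, chr17:8242276-8242575, had no match to any of the 4. These matches are descriptions of letters and not measured sites.

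Each value below is a count of unique molecular identifiers (UMIs), that is of captured transcripts. Levels are given as CPM, UMIs of a gene per 1000000 UMIs of the same cells. After filtering there were 2229 cells in the deficient library, 4340 in WT 1 and 4666 in WT 2, with a median of 2816, 3384.5 and 3338 UMIs per cell. Microglia-like cells made up 2176, 3906 and 4404 of them. Their identity held in the markers: in the deficient library P2ry12 had a UMI in 99.2% of microglia-like cells and Tmem119 in 98.6%, against 99.5% and 98.8% in WT 1 and 99.5% and 99.2% in WT 2. The genotype label was checked on the class II genes themselves. H2-Aa, H2-Ab1 and H2-Eb1, which encode class II chains, are not listed in the deficient table, and H2-Ab1 reached 235 CPM over the retained cells of WT 1 and 258 CPM over those of WT 2. Cd74, the class II invariant chain, was listed in each, at 443 CPM over the retained cells of the deficient library, 632 CPM in WT 1 and 711 CPM in WT 2. In microglia-like cells alone Cd74 stood at 48.9 CPM in the deficient library, 45.9 CPM in WT 1 and 52.1 CPM in WT 2. There H2-Ab1 was at 22.2 CPM in WT 1 and 21.2 CPM in WT 2. A table lists a gene only from about 5 cells upward, so a gene that is not listed lies under that limit. The deficient library shared 19 cell barcodes with WT 1 and 13 with WT 2, and the WT pair shared 30.

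Ccr6 was a common transcript in deficient microglia and a rare one in WT microglia. By UMIs of this 3′ kit, which counts ends of transcripts and not length, 91.6% of the 11859 genes fitted lay under it in the deficient library, against 8.64% in WT 1 and 9.03% in WT 2. In microglia-like cells 947 Ccr6 UMIs were counted in the deficient library, against 24 in WT 1 and 26 in WT 2. That is 149.5 CPM in the deficient library (95% exact Poisson interval 140 to 159), against 1.72 CPM in WT 1 (1.10 to 2.57) and 1.66 CPM in WT 2 (1.08 to 2.43). The WT levels differ by less than their counting error, and the deficient level lies far above both. With library sizes scaled by TMM the fold was 88.5, a log2 fold change of 6.47, given without a test or a spread between mice. It was the highest fold of all genes fitted, and the next, that of Ctse, an aspartic protease, was 4.33 on the log2 scale.

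The share of cells followed the level. Of the deficient microglia-like cells, 667 (30.7%, exact Clopper-Pearson interval 28.7 to 32.6%) had at least 1 Ccr6 UMI, against 0.614% in WT 1 (0.394 to 0.913%) and 0.590% in WT 2 (0.386 to 0.864%). Shares depend on depth, so each cell was also thinned to 1000 UMIs, which left out 45, 60 and 63 shallower cells. The share was then 13.98% in the deficient library (12.5 to 15.5%), against 0.234% in WT 1 (0.107 to 0.444%) and 0.138% in WT 2 (0.0507 to 0.301%). At 2000 UMIs it was 24.3% in the deficient library, 0.352% in WT 1 and 0.191% in WT 2. Intervals cover counting error only.

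**Figure D1:**
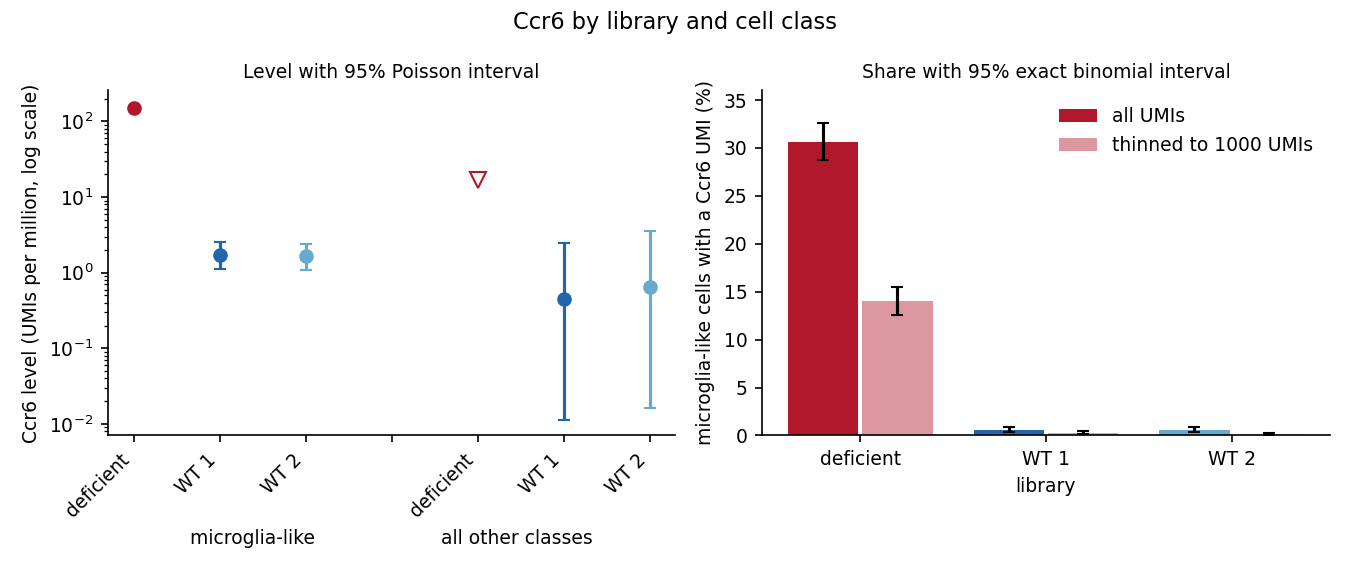
Left, Ccr6 level in CPM on a log axis for microglia-like cells and for all other classes, with 95% exact Poisson intervals; the open triangle is the level that 3 counts would give where 0 were found. Right, share of microglia-like cells with a Ccr6 UMI with 95% exact binomial intervals, as counted and after thinning. The deficient library stands at 149.5 CPM and 30.7%, and both WT libraries lie under 2 CPM and under 1%.

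In the deficient library the Ccr6 UMIs were found in microglia-like cells and in no other class. The other classes were few: 16 border-associated macrophage-like cells, 19 neutrophil-like, 4 classical monocyte-like and 14 non-classical monocyte-like cells. They held 0 Ccr6 UMIs among 176051, where the microglial level would give 26.3. Taken by class, that level would give 9.40 UMIs in the macrophage-like cells, 7.47 in the neutrophil-like, 3.87 in the classical and 5.57 in the non-classical monocyte-like cells. With 3 counts as the floor over all 53 cells, their level was under 17.04 CPM, and the microglial level was at least 8.77-fold higher. None of the 53 cells had a UMI, which allows a share of up to 5.66% at a median depth of 2416 UMIs, against 30.7% of microglia-like cells at 2822. The border-associated macrophage-like cells, which also live in the brain, had 0 of 16, which allows up to 18.8%.

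WT microglia carried Ccr6 as single molecules. Each of the 24 WT 1 and 26 WT 2 cells held exactly 1 UMI. Together with the 1 positive cell of another class in each library, they were spread over 9 and 8 clusters. None of the WT barcodes with Ccr6 was shared with the deficient table. The other WT classes had 1 UMI among 434 cells in WT 1, in a border-associated macrophage-like cell, and 1 among 262 cells in WT 2, in a classical monocyte-like cell. Neutrophil-like cells, which should lack the gene, had 0 of 281 at a median of 2982 UMIs in WT 1 and 0 of 134 at 2966 UMIs in WT 2, which allows shares of up to 1.07% and 2.24%. The WT microglial shares of 0.614% and 0.590% at medians of 3373.5 and 3324 UMIs lie under these limits. They cannot be told apart from background at this depth.

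Within the deficient library Ccr6 was spread over a large part of the microglia rather than held by a few cells, but less evenly than the markers of microglia. Of 2176 cells, 1509 had 0 Ccr6 UMIs, 466 had 1, 146 had 2, 38 had 3, 11 had 4, 5 had 5 and 1 had 6. If every cell held the same Ccr6 share of its UMIs, 1421 cells would have 0, 593 would have 1 and 136 would have 2. Cells with 2 or more numbered 201 (9.24%), against 162 under that even model, and they held 481 of the 947 UMIs. The share of cells with a UMI was 0.884 of the even expectation of 34.7%.

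The extra spread was put on a common scale as the coefficient of variation (CV) of the level over cells after counting noise is taken out. It was 88.5% for Ccr6. Sall1, a transcription factor of microglial identity with a like level of 176 CPM, had 41.1%. The 14 microglia markers reached from 17.1% (Csf1r, the receptor for microglial survival factors) to 45.5% (Fcrls), with a median of 34.1%, so all 14 lay under Ccr6. Ccrl2, a chemerin-binding receptor at 167 CPM, and Ccr1, at 37.7 CPM, had 326% and 370%, so their molecules sat in far fewer cells than those of Ccr6. All are values of this 1 library.

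**Figure D2:**
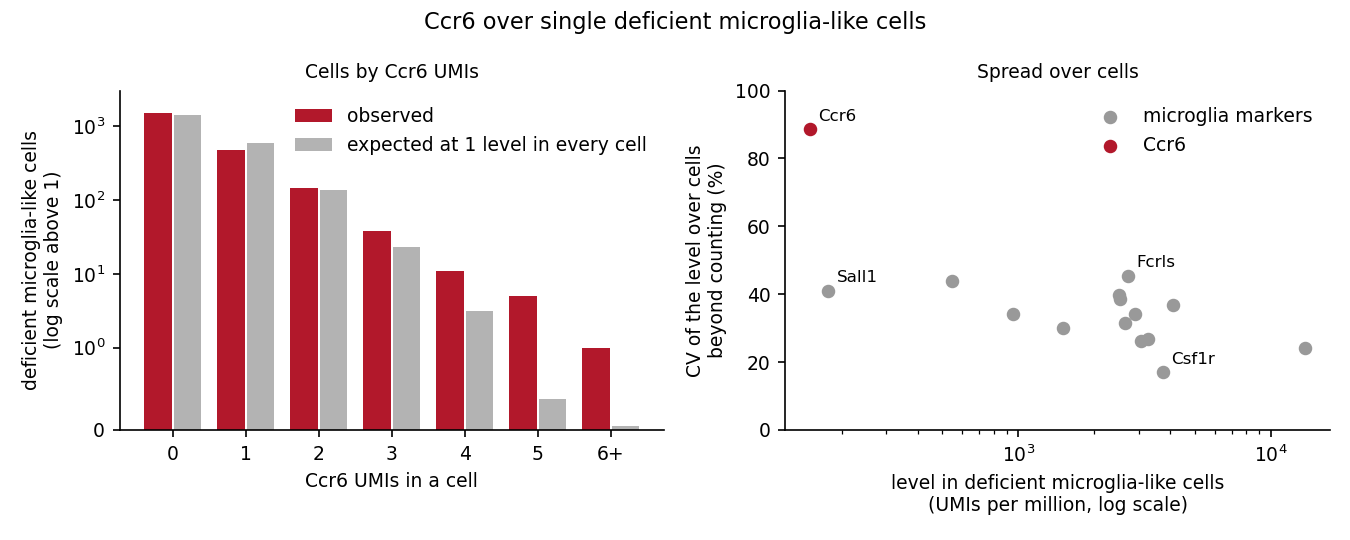
Left, deficient microglia-like cells by their number of Ccr6 UMIs, observed and expected if each cell held the same share, on an axis that is logarithmic above 1. Right, CV of the level over cells beyond counting against the level in CPM (log axis) for Ccr6 and the 14 microglia markers. The observed bars exceed the expected ones at 0 and from 2 UMIs upward, and Ccr6 at 88.5% lies above every marker.

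The level was then set against depth. In the 4 quartiles of UMIs per cell, from shallow to deep, Ccr6 stood at 159, 169, 156 and 128 CPM, and 23.0, 31.4, 33.7 and 34.5% of cells had a UMI. The level was lowest in the deepest quartile (113 to 143 CPM), whose interval lies under that of the second (148 to 192 CPM). Thinned to 1000 UMIs the shares were 13.2, 15.1, 13.4 and 9.91%.

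Across clusters of deficient microglia the level was mostly flat, with 1 high end and with 2 low ends that rest on few Ccr6 UMIs. Ccr6 had been left out of the genes used for clustering. Cluster 2, with 1455 cells and 66.9% of deficient microglia, stood at 150.5 CPM (139 to 163). Cluster 9, whose 327 cells were led by Tagap1, Tnf, Ccrl2 and the heat shock genes Hspa1a and Hspa1b among others, stood at 154 CPM (131 to 180), and the interferon-response cluster 6, led by Ifit3 and Irf7, at 146 CPM (101 to 205). Clusters 2 and 9 held mainly deficient cells, and every other microglia-like cluster held mainly WT cells. Among these the deficient cells stood at 185 CPM in the 26 cells of cluster 0, 159 CPM in the 23 of cluster 1, which was led by heat shock genes too, 163 CPM in the 44 of cluster 3 and 180 CPM in the 80 of cluster 8. Cluster 4, with 68 cells, was highest at 243 CPM (171 to 335).

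Clusters 5 and 12, both filled mainly by WT cells, stood lowest. Cluster 5, with 45 cells led by Klf4, Atf3 and Fosb, which are immediate early transcription factors, stood at 49.1 CPM (22.5 to 93.2). Cluster 12, with 25 cells led by Cst7 and Lpl, which are known from disease-associated microglia, stood at 32.5 CPM (6.71 to 95.03). These intervals lie under that of cluster 2. Cluster 10, 10 cells led by Nfkbia and Tnfaip3, stood at 78.7 CPM (16.2 to 230), and its interval holds the level of cluster 2. Leading genes were computed over the cells of all libraries, and Ccr6 itself stood among those of clusters 2 and 9, since these clusters are mostly deficient cells.

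**Figure D3:**
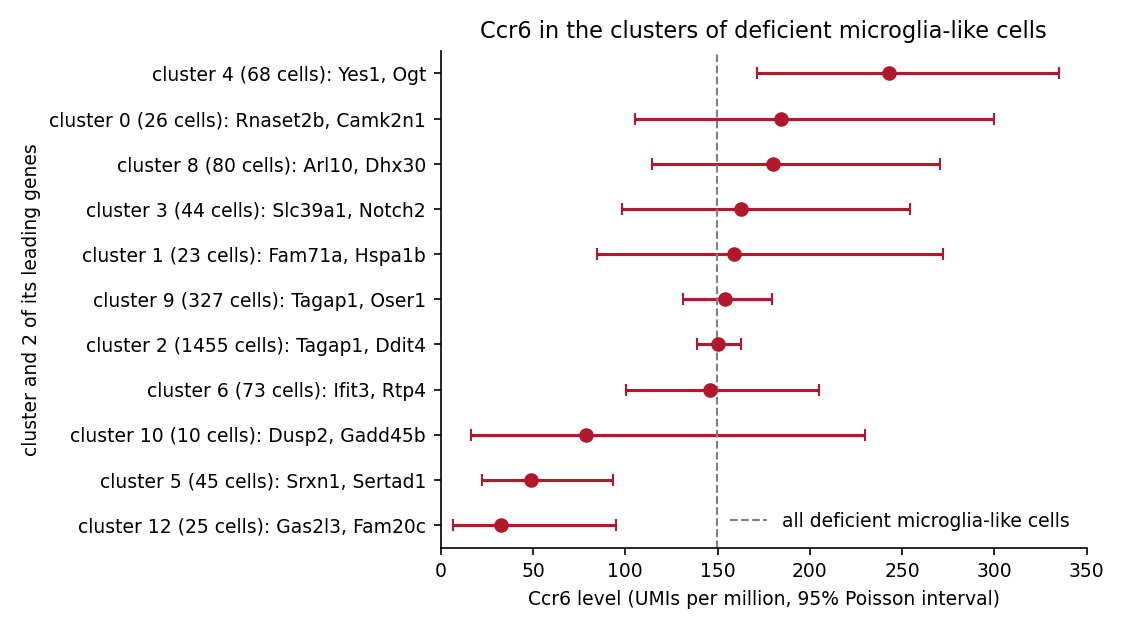
Ccr6 level in CPM with 95% exact Poisson intervals in each cluster of deficient microglia-like cells with at least 10 cells, from highest to lowest down the page, with 2 leading genes per cluster. Most clusters lie near the 149.5 CPM of all cells (dashed line), and clusters 5 and 12 lie at 49.1 and 32.5 CPM, on 9 and 3 Ccr6 UMIs.

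Deficient microglia with and without a Ccr6 UMI were then compared at matched depth, since a deeper cell catches a rare transcript more often. The 667 Ccr6-positive cells and the 1509 Ccr6-zero cells had a median of 2931 and 2761 UMIs, and 2929 UMIs in both after weighting. They were alike in most measures: a median of 1415 genes in positive and 1424 in zero cells, 1.06% and 1.12% mitochondrial UMIs, and 66.9% and 67.9% of cells in cluster 2. A cell with 0 UMIs may still express Ccr6, so the zero cells are a mixed group. Of 3160 genes with at least 50 CPM, 96.5% differed by at most 0.32 on the log2 scale. Past 1.5-fold there were 2 genes higher in positive cells (0.0633% of genes) and 11 lower (0.348%), 0.411% in both directions. With 1 library there is no test, and intervals cover counting error only.

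Hist1h2bc, a histone H2B gene, was past the fold on the higher side, at 245 CPM in positive and 151 CPM in zero cells (ratio 1.61). Its UMIs were in 30.6% of positive and 26.9% of zero cells. The ratio was 1.13 inside cluster 2 and 2.22 inside cluster 9, and 1.39 without the 10 richest cells in each set. That cut takes a larger share of the positive cells, which are fewer. High ratios under the fold were 1.45 for Tars, a threonyl-tRNA synthetase, and 1.44 for Sowahc and for Zfp445, a zinc finger protein. Stoml2, a mitochondrial membrane protein, had 1.42, and Mapkap1, a subunit of the mTORC2 kinase complex, had 1.39.

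The 8 genes with the lowest ratios were Ccl4, Apoe, Il1a, Osm, Fosb, Ier2, Ier3 and Kdm6b. Ccl4, an inflammatory chemokine, stood at 1015 CPM in positive cells (972 to 1060) and 1688 CPM in zero cells (1647 to 1730). Apoe, a carrier of lipids, stood at 435 CPM in positive and 778 CPM in zero cells. Il1a and Osm, both cytokines, had ratios of 0.552 and 0.556. Fosb, Ier2 and Ier3, all early response genes, had 0.545, 0.594 and 0.581, and Kdm6b, a histone H3 demethylase, had 0.555.

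The shares of cells with a UMI differed less than the levels. A Ccl4 UMI was found in 24.0% of positive and 24.5% of zero cells, and an Apoe UMI in 32.2% and 34.7%. The single richest cell held 172 Ccl4 UMIs among positive and 275 among zero cells, and 147 Apoe UMIs among positive and 332 among zero cells. Without the 10 richest cells of each set the ratios were 0.490 for Ccl4, 0.531 for Apoe, 0.509 for Il1a and 0.483 for Osm. They were 0.344 for Fosb, 0.417 for Ier2, 0.513 for Ier3 and 0.389 for Kdm6b. This cut takes a larger share of the 667 positive cells than of the 1509 zero cells. It therefore tends to lower the ratio of a gene whose UMIs sit in few cells, and nothing is concluded from the lower values.

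Inside single clusters the genes differed from one another. Inside cluster 2, where Ccl4 is low, it was at 95.2 CPM in positive and 102 CPM in zero cells, and inside cluster 9 at 3603 CPM in positive and 6014 CPM in zero cells. Kdm6b, Ier3 and Ier2 kept low ratios inside cluster 2, of 0.565, 0.60 and 0.518, on 13 to 22 UMIs in positive cells, and had 0.601, 0.512 and 0.776 inside cluster 9. Il1a and Osm had 0.972 and 0.899 inside cluster 2 and 0.822 and 0.560 inside cluster 9. Apoe had 0.810 inside cluster 2 and 1.37 inside cluster 9, where it was higher in positive cells. Fosb had 1.55 inside cluster 2, on 8 and 10 UMIs, and 0.636 inside cluster 9. Without clusters 5, 10 and 12 only 2 of the genes tested were lower past the fold, with 3 higher, a setting chosen after seeing the data. These counts and the low Ccr6 level of clusters 5 and 12 come from the same cells.

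**Figure D4:**
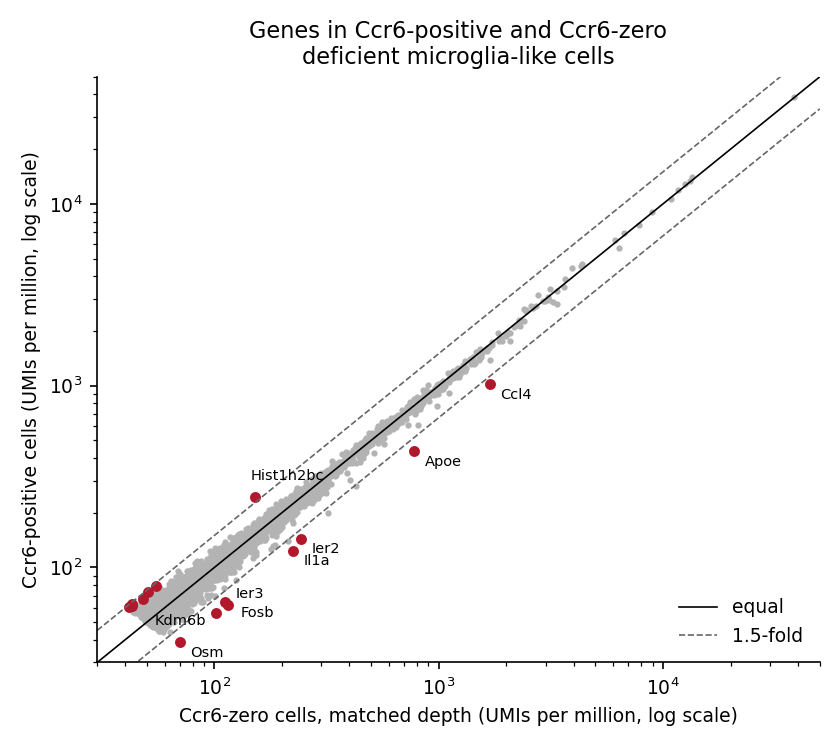
Level in Ccr6-positive against Ccr6-zero deficient microglia-like cells at matched depth, in CPM on log axes, for genes with at least 50 CPM, with 1 gene not shown; red points are those of the highest and lowest ratios. Hist1h2bc stands at 245 CPM in positive and 151 CPM in zero cells, Apoe at 435 and 778 CPM, and 96.5% of genes lie within 0.32 of the diagonal on the log2 scale.

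By list, the identity genes of microglia were all within the fold: of 14 measured markers 0 were past it, with a median ratio of 1.07, beside 1.01 over all 3160 genes. P2ry12, a purine receptor, stood at 4428 CPM in positive and 3916 CPM in zero cells. Over all 3160 genes 0.348% were lower and 0.0633% higher past the fold. Of 19 measured immediate early and dissociation genes 3 were lower and 0 higher, with a median of 0.845. Its most abundant members, Jun and Junb, had ratios of 0.85 and 0.92. Of 8 disease-associated microglia genes 1, Apoe, was lower, with a median of 0.916, and the most abundant, Tyrobp and Fth1, had 0.98 and 0.90. Without clusters 5, 10 and 12, as given above, only 2 of all genes tested were lower past the fold. Of 5 interferon-response genes 0 were past the fold, and Bst2 and Trim30a each had 0.98. Of 4 cell cycle genes 0 were past it, and Tuba1b and H2afz had 0.96 and 1.01. Stab1, the only marker of border-associated macrophages at 50 CPM or more, had 1.03. Nr4a1, a nuclear receptor on the list for non-classical monocytes, had 0.77, and it is also 1 of the 19 immediate early and dissociation genes above. Of 21 genes of chemokine receptor signalling 0 were past it, with a median of 0.999.

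Of 6 genes on the list of ligands, Ccl20 and 5 beta-defensins, 0 are listed in any table. The other chemokine receptors were followed with edgeR's quasi-likelihood test on UMIs summed per library over microglia-like cells, with Benjamini-Hochberg adjustment over all genes. It called 1070 of 11858 genes other than Ccr6 (9.02%), 240 higher in the deficient library and 830 lower. It rests on the spread of the WT pair alone. Here and below, levels of genes other than Ccr6 between libraries are TMM-scaled CPM.

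Of 22 other chemokine receptors 11 were tested, 1 was higher, 0 were lower and 10 did not pass, a share near the background. The 1 was Ccr1, a receptor for Ccl3 and Ccl5, at 37.9 CPM in the deficient library, 19.8 CPM in WT 1 and 26.2 CPM in WT 2, a log2 fold change of 0.72 (SE 0.15, edgeR adjusted p = 0.0022). It lost its call with DESeq2 (adjusted p = 0.148) and over all retained cells (0.441), and over 8 alternatives adjusted p reached from 0.00050 to 0.441. Cx3cr1, the fractalkine receptor, stood at 3270 CPM in the deficient library, 3018 CPM in WT 1 and 2959 CPM in WT 2, and Ccrl2 at 168, 188 and 101 CPM in the same order. The median log2 fold change of the 11 was 0.20, beside 0.00 for all genes tested.

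Of 39 genes of chemokine receptor signalling 34 were tested, 0 were higher and 9 lower, 26.5% of them against the 9.02% background. With DESeq2 3 were lower. Rac1, a small GTPase of cell movement, fell to 143 CPM in the deficient library, against 391 CPM in WT 1 and 400 CPM in WT 2, a log2 fold change of -1.47 (SE 0.11). Rap1b, a small GTPase of adhesion, was at 199 CPM in the deficient library, 458 CPM in WT 1 and 494 CPM in WT 2 (-1.26, SE 0.11). Both genes also passed with DESeq2, and in each the deficient library lay under both WT libraries. Gng10, a G protein gamma subunit, Grk6, a kinase of activated receptors, Rgs1 and Rgs2, which switch off G proteins, were lower too, by log2 fold changes of -0.73, -0.71, -0.60 and -0.51, but their calls were lost with DESeq2 and over all retained cells. Adjusted p over the 8 alternatives reached from 0.0024 to 0.365 for Gng10, 0.0099 to 0.562 for Grk6, 0.0063 to 0.9998 for Rgs1 and 0.0053 to 0.368 for Rgs2. Rgs10 and Cdc42, the most abundant members with Rgs2, had log2 fold changes of 0.05 and 0.06. The median of the 34 was -0.03.

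Genes of the programme of interleukin-17-producing T cells, in which Ccr6 is best known, were looked at next. Of 15 list members 11 were tested and 0 passed in either direction with edgeR or with DESeq2, with a median log2 fold change of -0.02. The edgeR background is 9.02%, so few of 11 genes would be called in any case, and nothing is concluded from the 0. At an unadjusted p under 0.05 in edgeR, 0 were higher and 1 lower. Il23r, a cytokine receptor of these cells, is not listed in any of the 3 tables. Tgfbr1, a receptor for transforming growth factor beta, was at 918 CPM in the deficient library, 859 CPM in WT 1 and 883 CPM in WT 2. Maf, a transcription factor, stood at 504, 508 and 490 CPM and Socs3, a brake on cytokine signalling, at 384, 454 and 327 CPM in these libraries.

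Markers of other cell types that can carry Ccr6 were at or near 0, or mostly at like levels in the groups compared. In deficient microglia-like cells 0 of 6 markers of interleukin-17-producing lymphocytes and 1 of 9 T cell markers, Lck, are listed, and Lck had 9 UMIs. Of these, 5 were in Ccr6-positive cells (2.44 CPM) and 4 in Ccr6-zero cells (0.933 CPM). Cd79b, Ighm and Ighd, the listed markers of B cells among 8, summed to 344 CPM in the deficient library, 369 CPM in WT 1 and 346 CPM in WT 2. Within the deficient library they summed to 359 CPM in Ccr6-positive and 337 CPM in Ccr6-zero cells. Zbtb46, Batf3 and Fscn1, the listed dendritic cell markers, summed to 540 CPM in the deficient library, against 556 CPM in WT 1 and 529 CPM in WT 2, where more members are listed. They summed to 559 CPM in Ccr6-positive and 532 CPM in Ccr6-zero cells. Ccr9, Cox6a2 and Pacsin1, the listed markers of plasmacytoid dendritic cells, summed to 18.1 CPM in positive and 12.6 CPM in zero cells, on 37 and 54 UMIs. Klrd1, the listed natural killer cell marker, was at 14.7 CPM in positive and 15.4 CPM in zero cells. Neutrophil markers in microglia-like cells summed to 49.7 CPM in the deficient library, against 1210 CPM in WT 1 and 635 CPM in WT 2, and to 49.4 CPM in positive and 49.9 CPM in zero cells. Neutrophil-like cells themselves held 0 Ccr6 UMIs in each library.

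The genes next to Ccr6 on chromosome 17 were called more often than genes in general. Of 21 tested genes that start within 2 Mb of it, 3 were higher and 5 lower in the deficient library, 38.1% against the 9.02% background. Most of these calls fall on genes with near copies (Rnaset2a, Rnaset2b, Tagap, Tagap1 and Dynlt1c), whose values are uncertain, as described below. Within 500 kb 10 were tested, 1 higher and 4 lower. On the right, Mpc1, a subunit of the mitochondrial pyruvate carrier, was at 164 CPM in the deficient library, 260 CPM in WT 1 and 281 CPM in WT 2, a log2 fold change of -0.72 (SE 0.10, edgeR adjusted p = 3.1e-05). Sft2d1, a vesicle transport protein, was at 422 CPM in the deficient library, 555 CPM in WT 1 and 548 CPM in WT 2 (-0.39, edgeR adjusted p = 0.022, and 0.017 to 0.102 over 8 alternatives, lost over all retained cells). On the left, Fgfr1op, a centrosomal protein and the nearest gene on that side, had 0.28 and did not pass (edgeR adjusted p = 0.216).

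Farther left lie gene pairs that are near copies of one another, and their values are uncertain because reads may be split between copies. Rnaset2a, a ribonuclease 120.6 kb away, was at 513 CPM in the deficient library, 298 CPM in WT 1 and 293 CPM in WT 2 (0.79). Its copy Rnaset2b, 1265 kb away, was at 11.7 CPM in the deficient library, 259 CPM in WT 1 and 242 CPM in WT 2 (-4.41). Tagap, a putative GTPase-activating protein 310 kb away, was at 19.2 CPM in the deficient library, 143 CPM in WT 1 and 97.6 CPM in WT 2 (-2.64), and its copy Tagap1, 1281 kb away, was at 114 CPM in the deficient library, 8.28 CPM in WT 1 and 8.57 CPM in WT 2 (3.75). So in each pair 1 copy was higher and the other lower. E430024P14Rik, which overlaps Tagap, had -1.35 and lost its call with DESeq2 (adjusted p = 0.344, and 0.0054 to 0.344 over 8 alternatives). Dynlt1c, a dynein light chain with near copies of its own, had 0.97. Rsph3a, Prr18, Gm16702 and Gm17087, also within 500 kb, did not pass, and each was under 6 CPM in all libraries.

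Tagap1, so much higher in the deficient library, was at like levels in its cells with and without Ccr6. It had a UMI in 27.3% of Ccr6-positive and 26.2% of Ccr6-zero deficient cells, at 118 CPM in positive and 113 CPM in zero cells. Mpc1, Sft2d1 and Rnaset2a also had like levels in both sets, with ratios of 1.05, 1.04 and 0.99. The class II genes lie on the same chromosome, and H2-Ab1 starts 26.0 Mb from Ccr6. Along chromosome 17, 9 of the 31 genes tested in the first 10 Mb, where Ccr6 lies, were called (29.0%). They include the genes called within 2 Mb of Ccr6, and so the near copies. Between 30 and 40 Mb, where the class II genes lie, 21 of 162 were called (12.96%), and in the other bins of at least 20 genes 5.26 to 13.2%. Over the whole of chromosome 17 the share was 10.9%, within the range of 3.75% (X) to 11.7% (chromosome 16) over all chromosomes. The labels do not give the strain on which the deficient allele was made, and a strain difference near that allele cannot be told apart from the genotype here.

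**Figure D5:**
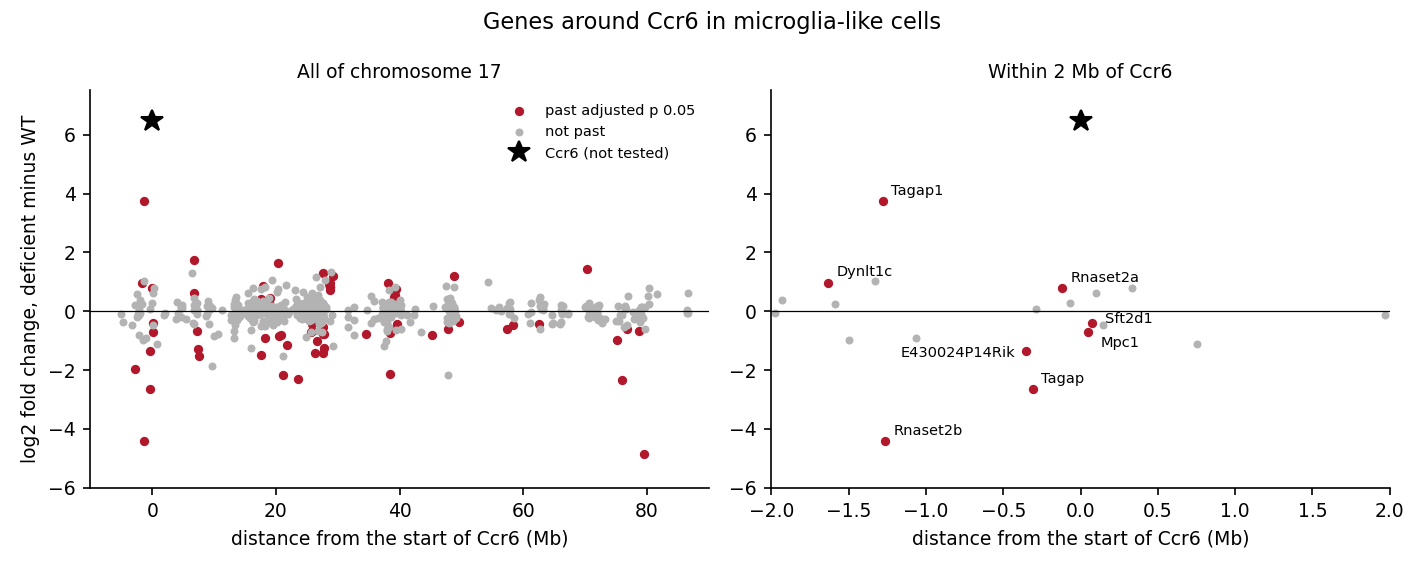
Log2 fold change, deficient minus WT, of tested genes on chromosome 17 against the distance of their start from that of Ccr6 in Mb; red points passed adjusted p 0.05 in edgeR and the star is Ccr6, which was not tested. On the right, 8 of 21 genes within 2 Mb passed, from -4.41 for Rnaset2b to 3.75 for Tagap1.

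The genes whose level was most like that of Ccr6 were sought over 36 units, each the cells of 1 library in 1 cluster, of which 10 were deficient. Over 8050 genes the highest Pearson correlations were 0.66 for Ptpn1, a tyrosine phosphatase, Tagap1 and Trim26, a tripartite motif protein, and 0.64 for Cirbp, a cold-inducible RNA-binding protein, and Fyb, an adaptor protein. Ppp1r11, a phosphatase inhibitor, and Znrd1, an RNA polymerase subunit, had 0.63 and Rnaset2a 0.62, while the next gene, Fam98c, had 0.61. These units share libraries, so the correlations are descriptions. Ccr6 is high in the deficient units alone, so this measure favours genes that are higher there, and the log2 fold changes of the 8 genes, from 0.48 for Cirbp to 3.75 for Tagap1, are given as a description. Of the 8, 5 lie on chromosome 17 (Tagap1, Rnaset2a, Trim26, Ppp1r11 and Znrd1), which holds 5.13% of the genes compared. The last 3 start between 36837134 and 36954356. The order is loose: other unit sizes, another pseudocount or a coarser clustering kept 3 of the 8.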

How the data were processed

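The authors deposited 1 table of UMI counts for each of 3 libraries, as whole numbers without normalization. Per the labels' protocols these are 3′ droplet libraries of 10x Genomics. The submitters' processing notes name Cell Ranger 3.0, Seurat 2.2 and the build mm10. Filters applied before deposit are not stated there. In total there were 2278 barcodes and 6616662 UMIs in the deficient library, 4589 and 16230216 in WT 1 and 4815 and 17293844 in WT 2.

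Barcodes entered with 500 or more UMIs, 200 or more genes and a mitochondrial share of 10% or less. Scrublet marked 29 of 11264 cells (0.257%), 28 of them in the deficient library. It is taken not to have worked, and doublets can remain. Cells were clustered with scanpy 1.11.5 and leidenalg 0.10.2 (2000 variable genes without Ccr6, class II genes and sex-linked genes, 30 components, resolution 1) and named from marker lists, so names are rebuilt. Per library, the microglia-like cells were added up, and genes that all 3 tables list went into edgeR 4.0.16 (quasi-likelihood test after TMM scaling, 1 residual degree of freedom, Benjamini-Hochberg at 0.05), with DESeq2 1.42.0 as an alternative. The replicates are 2 WT libraries, so p-values rest on the spread of that pair. The edgeR fit was tested on simulated data.

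Ccr6-positive and Ccr6-zero cells were compared as summed CPM after weighting zero cells to positive cells over 20 bins of depth, with a pseudocount of 1 in ratios and Ccr6 left out of totals. Poisson intervals are exact, those of weighted sums are gamma intervals, and shares have Clopper-Pearson intervals at 95%. All cover counting error only. Positions come from GENCODE M21, in which 98.7% of 14221 symbols had a single position, and promoter windows from RefSeq's GRCm38.p6 table.

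Ccr6 and the gene lists were chosen with earlier results of these data known. Genes were named by rule. These are the 3 most abundant members of the chemokine receptor, signalling and T cell lists with up to 6 called ones, tested genes within 500 kb, the 8 genes most like Ccr6, the 8 highest and 8 lowest positive over zero ratios (predicted and sex-linked genes left out), the 2 most abundant members of each other list and the listed markers of lymphocytes and dendritic cells. Ctse, Fam98c, Cd74, the class II genes, genes within 2 Mb but beyond 500 kb, leading genes of clusters and the microglia markers quoted were chosen with their values in view. Not every gene of the rule is reported here.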

Additional observations from a re-analysis of the deposited data

How the results depend on the processing

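The log2 fold change of Ccr6 was 6.55 over all retained cells, beside 6.47, and 6.44 to 6.50 without 1 WT library. The share of deficient microglia-like cells with a Ccr6 UMI was 13.98% thinned to 1000 UMIs and 24.3% at 2000. Counts between Ccr6-positive and Ccr6-zero cells grew where fewer UMIs, lower levels or smaller folds entered. Beside 2 higher and 11 lower genes there were 29 and 33 with every cell thinned to 1000 UMIs and 53 and 59 past 0.32 on the log2 scale. From 20 CPM there were 19 and 40, and with positive cells of at least 2 UMIs 26 and 36. Over all retained cells 3 were higher and 32 lower. There the cells of other classes, none with a Ccr6 UMI, joined the zero cells. Settings added after seeing the data gave 2 lower genes without clusters 5, 10 and 12 and 6 higher and 1 lower in cluster 2 alone. Genes higher and lower in edgeR, 240 and 830, were 50 and 422 with DESeq2, and 121 were higher over all retained cells. Within 1 Mb of Ccr6 1 gene was higher, beside 3 within 2 Mb. Chemokine receptors had 0 higher with DESeq2, and 0 higher and 2 lower over all retained cells. Signalling genes lower numbered 3 with DESeq2, beside 9. Of the 8 genes most like Ccr6, 3 were kept with units of at least 50 cells, with log2(CPM + 10) and at resolution 0.5. The causes were not tested. No paired analysis was possible because replicate numbers exist only within WT. Without a WT library no residual degree of freedom is left, so gene counts could not be refitted. The WT values rest on 24 and 26 UMIs, and 53 other cells of the deficient library bound Ccr6 outside microglia at 17.04 CPM only.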
